A study of Mus musculus with 6 samples.

Results

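The antioxidant response under the transcription factor NRF2 was described here through 10 genes, chosen by name from the 54532 genes of the RNA-seq table. They were the transcription factor gene itself (*Nfe2l2*), the gene of its inhibitor (*Keap1*), and *Gclc*, *Gclm*, *Gsr*, *Slc7a11*, *Txnrd1*, *Srxn1*, *Nqo1* and *Hmox1*, which are known as its targets. RNA-seq was performed on granulosa cells (GCs), the somatic cells that surround the oocyte, in 6 samples from ICR females that were 3 weeks old. All mice had received 5 IU of PMSG, a gonadotropin that drives follicle growth, 22 h before treatment. PBS or 120 mg/kg of cyclophosphamide (CTX), an alkylating drug, was then given i.p., and GCs were harvested after 6 h. There were 3 samples per treatment, each a pool of GCs from 3 mice. The comparison asks how gene expression in GCs changes early after CTX.

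NRF2 is normally held in the cytoplasm by KEAP1, which presents it to a CUL3 ubiquitin ligase for degradation. Oxidants and electrophiles modify cysteines of KEAP1, and NRF2 then accumulates without any need for more of its own transcript, pairs with a small MAF protein, and binds antioxidant response elements (AREs) near its target genes. BACH1 competes for the same elements. The targets make and recycle glutathione, keep thioredoxin and peroxiredoxins reduced, and detoxify quinones, haem and epoxides. The abundance of *Nfe2l2* mRNA is therefore not a measure of NRF2 protein, which was not measured in these data.

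To show the elements that define this pathway, the promoters of the members were searched for the ARE core TGACNNNGC on both strands. The windows were those of RefSeq on GRCm38.p6, from 250 bases before to 50 bases after each start site. Of the 10 members, 7 had an entry, and 4 of those 7 held the core (*Nfe2l2*, *Gclm*, *Txnrd1* and *Srxn1*). By entry, this was 4 of 9 (44.4%), against 12.4% of all 32851 promoter entries. *Gclc*, *Gsr* and *Hmox1* had no entry. The windows below run 5′ to 3′ on the gene's own strand, with the core in capitals for *Nfe2l2*, *Gclm* and *Txnrd1*. In *Srxn1* the core lay after the start site, and the capitals mark instead a pair of TGACTCA sequences, read here on the reverse strand. That motif is the one bound by AP-1 and can lie within an ARE. It occurred at least once in 5.20% of all entries and at least 2 times in 0.222%. A match is a description of the letters in the window, and binding was not measured.
*Nfe2l2*, chr2:75704865-75704913, minus strand: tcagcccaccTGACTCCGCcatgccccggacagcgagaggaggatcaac
*Gclm*, chr3:122245393-122245461, plus strand: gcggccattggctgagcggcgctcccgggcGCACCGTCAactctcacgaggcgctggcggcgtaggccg
*Txnrd1*, chr10:82859084-82859152, plus strand: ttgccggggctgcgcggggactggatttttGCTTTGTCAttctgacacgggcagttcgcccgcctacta
*Srxn1*, chr2:152105392-152105515, plus strand: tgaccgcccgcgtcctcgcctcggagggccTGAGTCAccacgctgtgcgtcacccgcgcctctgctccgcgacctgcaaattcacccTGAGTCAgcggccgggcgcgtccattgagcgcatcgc

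None of the 9 members that could be tested passed the test for a change after CTX, although most were fitted slightly higher. The remaining member, *Slc7a11*, was below the limit on low values. Levels are given as FPKM, which divides the fragments of a gene by its length and by the depth of the sample, so that they can be compared between genes. Differences were estimated with limma on log2(FPKM + 0.1), a scale that understates the change of low genes. The adjusted p values are those of limma with the Benjamini-Hochberg method over the 14463 genes with a mean of at least 0.5 FPKM. A gene rose or fell if its adjusted p was below 0.05. Of the 9 members tested, 0 rose and 0 fell, where 254 of the 14463 genes (1.76%) did so, and 0.961% passed with a change of over 2-fold. At an unadjusted p below 0.05, 3 members were higher after CTX (*Hmox1*, *Gclm* and *Txnrd1*) and 0 were lower. Of all genes tested, 19.6% were below that p, 10.5% higher and 9.10% lower. The fitted log2 fold changes ran from -0.105 to 0.417 with a median of 0.184, and 7 of the 9 were above 0, against 48.6% of all genes tested. For all genes tested the median was -0.00813, with quartiles at -0.193 and 0.175. For 5 of the 9 members all CTX samples exceeded all PBS samples, which was so for 15.0% of all genes tested. The 95% interval of the fold change, unadjusted for the number of genes, lay within 2-fold in both directions for 9 of 9 members, as it did for 76.1% of all genes tested.

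**Figure D1:**
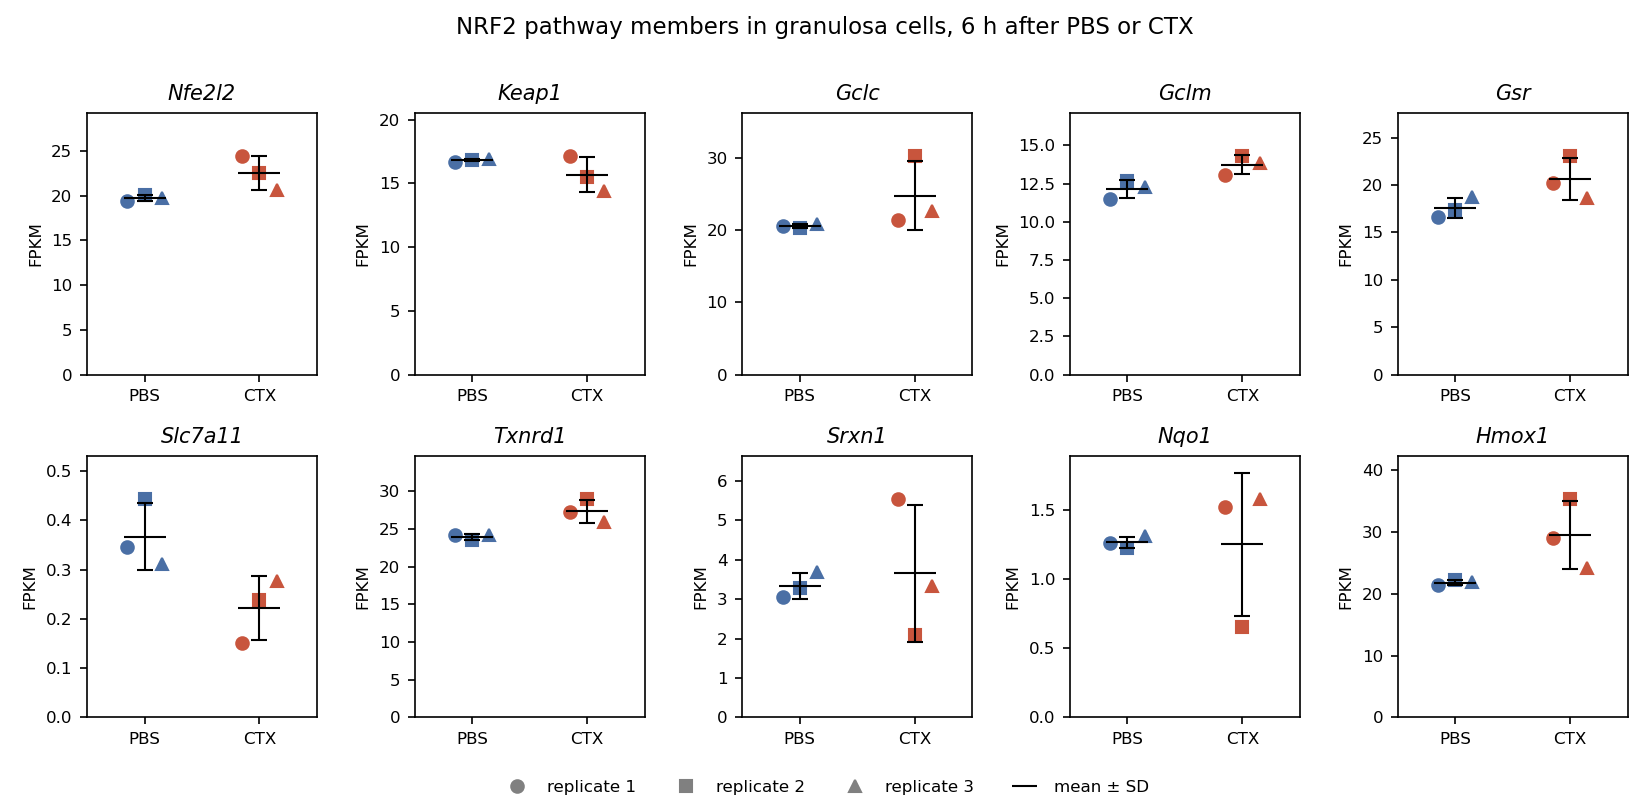
FPKM of the 10 members in each sample (y axis, linear from 0, with its own range in each panel) for the PBS and CTX groups (x axis). Points are samples with 1 marker shape per replicate number, and bars are the mean ± SD of 3 samples. The PBS points lie close together, while the CTX points spread widely for *Srxn1*, *Nqo1*, *Gclc* and *Hmox1*.

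Reads rebuilt from the FPKM values and gene lengths totalled 16005869 to 18455011 per sample, and 3 reads amounted to 0.164 to 0.185 FPKM for a gene of 1 kb. CTX replicate 2 stood apart from the other samples, at 74.7 on the first principal component (46.8% of the variance) where the others lay between -26.6 and 13.2. All 8 granulosa markers were expressed, and their summed level was 11396 to 12599 FPKM in PBS and 10197 to 10864 FPKM in CTX samples. This sum was lower in every CTX sample, but 80.3% to 87.7% of it was *Inha*. By gene, 6 of the 8 were lower in every CTX sample (14.1% of all genes tested), *Nr5a2* overlapped, and *Amh* was higher in every CTX sample (15.0% of all genes tested). *Cyp19a1* (aromatase) was at 59.2 to 62.4 FPKM in PBS and 47.6, 6.61 and 32.5 FPKM in CTX replicates 1, 2 and 3. *Amh* (anti-Müllerian hormone) was at 48.4 to 51.1 FPKM in PBS and 54.3, 179 and 85.5 FPKM in CTX replicates 1, 2 and 3. Neither passed the test (limma adjusted p = 0.291 and 0.269). In pooled cells such as these, fewer cells of a type and less RNA per cell cannot be told apart. The sums of the other markers in PBS and CTX samples were 43.2 to 46.5 and 29.1 to 48.8 FPKM for 4 theca genes and 32.9 to 70.2 and 45.5 to 81.0 FPKM for 7 oocyte genes. Within the theca list, *Acta2* (smooth muscle actin) rose by a log2 fold change of 1.08 (SE 0.13, limma adjusted p = 0.0166). *Cyp17a1*, the steroidogenic marker of that list, was at 30.8 to 34.4 FPKM in PBS and 29.6, 1.25 and 12.4 FPKM in CTX replicates 1, 2 and 3 (limma adjusted p = 0.329). The sums were 4.71 to 5.50 and 1.96 to 4.26 FPKM for 5 endothelial genes, and 319 to 454 and 138 to 497 FPKM for 6 erythroid genes. Leukocyte and macrophage markers are given with *Hmox1*.

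*Nfe2l2* (ENSMUSG00000015839), which encodes NRF2, lies on the minus strand of chromosome 2 at 75675513 to 75704641 (GRCm38). It was present at 19.4, 20.1 and 19.8 FPKM in PBS replicates 1, 2 and 3 and at 24.4, 22.6 and 20.6 FPKM in CTX replicates 1, 2 and 3. Every CTX sample was above every PBS sample, but CTX replicate 3 exceeded the highest PBS sample by little. The mean was 19.8 ± 0.346 FPKM in PBS and 22.5 ± 1.88 FPKM in CTX (SD, n = 3), a log2 fold change of 0.18 (SE 0.078, limma adjusted p = 0.26) or 1.14-fold with an interval of 0.998 to 1.29.

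*Keap1* (ENSMUSG00000003308; chromosome 9, 21229730 to 21239361, minus strand) encodes the cysteine-rich adaptor that marks NRF2 for degradation. Its levels were 16.7, 16.9 and 16.9 FPKM in PBS and 17.1, 15.5 and 14.4 FPKM in CTX replicates 1, 2 and 3. The groups overlapped, since CTX replicate 1 was the highest of all samples and CTX replicate 3 the lowest. The log2 fold change was -0.105 (SE 0.080, limma adjusted p = 0.48). An antisense gene, *Gm16754*, shares 510 exon bases with *Keap1* and was counted at 12 to 55 reads per sample. Whether the counting used strand is not given in the sources used here, so reads in that overlap may be uncertain.

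In CTX samples the ratio of the regulator to its inhibitor was more even than either gene alone, while in PBS samples *Keap1* by itself was the more even. *Nfe2l2* stood at 1.16, 1.19 and 1.17 times the FPKM of *Keap1* in PBS samples and at 1.43, 1.46 and 1.44 times in CTX samples. The groups did not overlap, and the gap between them was wider than the spread in either. The mean ratio was 1.18 ± 0.0158 in PBS and 1.44 ± 0.0151 in CTX (SD, n = 3), a difference of 0.29 in log2 of the ratio. This was 1 of 7 ratios computed after the values had been seen. An exact two-sided permutation test gave p = 0.1, the smallest that this test can give with 3 against 3 samples, and 0.233 after adjustment over the 7 ratios.

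The same was done for 2 other regulators. *Nfe2l1*, a relative of *Nfe2l2* that controls proteasome genes, was 6.32, 5.87 and 5.92 times as abundant as *Nfe2l2* in PBS and 4.77, 4.19 and 4.66 times in CTX samples. This ratio was lower in every CTX sample (exact permutation p = 0.1, adjusted p = 0.233, n = 3). For *Nfe2l2* to *Bach1*, the repressor of the same elements, the ratio was 4.09 ± 0.415 in PBS and 3.94 ± 0.143 in CTX samples, and the groups overlapped (exact permutation p = 0.9, adjusted p = 0.9, n = 3).

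**Figure D2:**
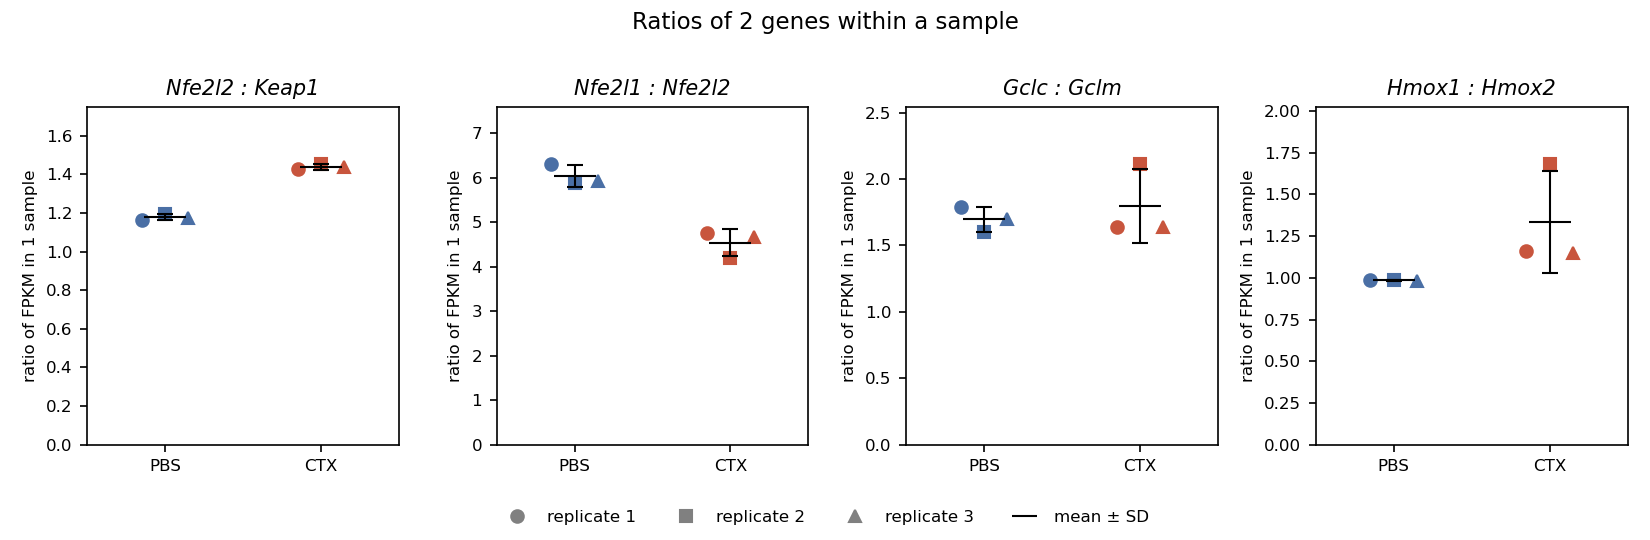
Ratio of the FPKM of 2 genes within a sample (y axis, linear from 0) for 4 gene pairs in the PBS and CTX groups (x axis); points are samples and bars the mean ± SD of 3. *Nfe2l2* to *Keap1* is higher in all 3 CTX samples with little spread, *Nfe2l1* to *Nfe2l2* is lower, and *Gclc* to *Gclm* overlaps between groups.

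Among the glutathione genes, both subunits of glutamate-cysteine ligase, the rate-limiting enzyme of glutathione synthesis, were a little more abundant in every CTX sample. *Gclc* (ENSMUSG00000032350; chromosome 9, 77754535 to 77794485, plus strand), the catalytic subunit, was present at 20.6, 20.4 and 20.9 FPKM in PBS and at 21.4, 30.2 and 22.7 FPKM in CTX replicates 1, 2 and 3. Most of that difference came from CTX replicate 2, and without it the log2 fold change was 0.10 in place of 0.25 (SE 0.13, limma adjusted p = 0.339).

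*Gclm* (ENSMUSG00000028124; chromosome 3, 122245557 to 122270732, plus strand), the modifier subunit that raises the activity of the enzyme, was present at 11.5, 12.7 and 12.3 FPKM in PBS and at 13.1, 14.3 and 13.9 FPKM in CTX replicates 1, 2 and 3. The groups did not overlap, and no single CTX sample stood out. *Gclm* was the only member that varied less between CTX samples (coefficient of variation 4.52%) than between PBS samples (4.92%). Its log2 fold change was 0.18 (SE 0.072, limma adjusted p = 0.25). It shares 296 exon bases with *Gm17494* on the opposite strand, counted at 15 to 29 reads per sample. It also shares 244 exon bases with the pseudogene *Gm6061*, which had 0 reads in each sample. The ratio of *Gclc* to *Gclm* was 1.79, 1.60 and 1.70 in PBS and 1.64, 2.12 and 1.64 in CTX samples, so only CTX replicate 2 lay above the PBS range (exact permutation p = 0.8, adjusted p = 0.9, n = 3).

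*Gsr* (ENSMUSG00000031584; chromosome 8, 33652523 to 33698163, plus strand), glutathione reductase, was present at 16.7, 17.3 and 18.7 FPKM in PBS and at 20.2, 23.0 and 18.6 FPKM in CTX replicates 1, 2 and 3. CTX replicate 3 lay just under PBS replicate 3, so the groups overlapped. The log2 fold change was 0.22 (SE 0.097, limma adjusted p = 0.267), or 1.17-fold with an interval of 0.994 to 1.37.

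*Slc7a11* (ENSMUSG00000027737; chromosome 3, 49892526 to 50443614, minus strand), the cystine importer subunit that supplies cysteine for glutathione, went the other way. Its levels were 0.347, 0.443 and 0.310 FPKM in PBS and 0.151, 0.239 and 0.277 FPKM in CTX replicates 1, 2 and 3, resting on 86, 113 and 70 reads and on 38, 59 and 69 reads. All CTX samples lay below all PBS samples, although CTX replicate 3 and PBS replicate 3 differed by 1 read. The mean was 0.367 ± 0.0684 FPKM in PBS and 0.222 ± 0.0647 FPKM in CTX (SD, n = 3). With a mean of 0.294 FPKM over the 6 samples the gene was below the limit for the reported fit. The log2 difference was -0.55, and in a fit with no limit on low values its limma adjusted p was 0.519. Its partner chain *Slc3a2*, which serves several transporters, was present at 129 to 145 FPKM in PBS and 92.3 to 144 FPKM in CTX samples. Its log2 fold change was -0.22 (SE 0.16, limma adjusted p = 0.479).

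The thioredoxin members behaved differently from one another. *Txnrd1* (ENSMUSG00000020250; chromosome 10, 82833951 to 82897712, plus strand), the cytosolic thioredoxin reductase, was present at 24.2, 23.5 and 24.2 FPKM in PBS and at 27.3, 28.9 and 25.9 FPKM in CTX replicates 1, 2 and 3. Every CTX sample was higher, and the means were 24.0 ± 0.414 and 27.4 ± 1.53 FPKM (SD, n = 3). The log2 fold change was 0.19 (SE 0.065, limma adjusted p = 0.2), or 1.14-fold with an interval of 1.02 to 1.27. Against the mitochondrial *Txnrd2*, *Txnrd1* stood at 4.10 ± 0.237 in PBS and 4.88 ± 0.868 in CTX samples (exact permutation p = 0.3, adjusted p = 0.525, n = 3).

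*Srxn1* (ENSMUSG00000032802; chromosome 2, 152105516 to 152111376, plus strand), sulfiredoxin, which repairs overoxidised peroxiredoxins, was present at 3.04, 3.29 and 3.70 FPKM in PBS and at 5.54, 2.10 and 3.35 FPKM in CTX replicates 1, 2 and 3. The CTX samples held both the highest and the lowest value, and their coefficient of variation was 47.6% against 9.91% in PBS. The log2 fold change of 0.026 (SE 0.33, limma adjusted p = 0.976) turned to -0.32 without CTX replicate 1 and to -0.038 without PBS replicate 1.

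*Nqo1* (ENSMUSG00000003849; chromosome 8, 107388225 to 107403206, minus strand), the quinone reductase often used as a marker of NRF2 activity, was low in these cells. It was present at 1.26, 1.23 and 1.31 FPKM in PBS and at 1.53, 0.653 and 1.58 FPKM in CTX replicates 1, 2 and 3, on 33 to 35 reads and on 43, 18 and 44 reads. CTX replicates 1 and 3 lay above all PBS samples, and CTX replicate 2 lay far below them. The log2 fold change was -0.10 (SE 0.33, limma adjusted p = 0.879). It was 0.27 without CTX replicate 2 (limma adjusted p = 0.373).

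*Hmox1* (ENSMUSG00000005413; chromosome 8, 75093621 to 75100589, plus strand), the inducible haem oxygenase that turns haem into biliverdin, iron and carbon monoxide, had the largest fitted change of the 9 members tested. It was present at 21.3, 22.2 and 21.8 FPKM in PBS and at 29.0, 35.2 and 24.2 FPKM in CTX replicates 1, 2 and 3. All CTX samples were higher, and they differed among themselves by more than CTX replicate 3 differed from PBS. The mean was 21.8 ± 0.435 FPKM in PBS and 29.5 ± 5.56 FPKM in CTX (SD, n = 3). This gave a log2 fold change of 0.42 (SE 0.14, limma adjusted p = 0.185), or 1.34-fold with an interval of 1.06 to 1.68.

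The constitutive haem oxygenase *Hmox2* had a log2 fold change of 0.0072 (SE 0.086, limma adjusted p = 0.974). The ratio of *Hmox1* to *Hmox2* was 0.986, 0.989 and 0.981 in PBS and 1.16, 1.68 and 1.15 in CTX samples. It was higher in every CTX sample, and CTX replicate 2 stood above the other two (exact permutation p = 0.1, adjusted p = 0.233, n = 3).

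*Hmox1* is also a gene of macrophages, which take up haem from red cells, so the leukocyte and macrophage markers are given beside it. Their summed level over 9 genes was 19.8 to 21.8 FPKM in PBS and 34.2, 63.8 and 24.6 FPKM in CTX replicates 1, 2 and 3. The CTX samples stood in the same order for *Hmox1*. The members *Txnrd1* and *Gsr* had this order too, while the other members did not. Most of the marker sum was *Lyz2*, at 13.1 to 14.3 FPKM in PBS and 22.9, 45.8 and 14.7 FPKM in CTX replicates 1, 2 and 3. Of the 9 markers, 4 were higher in every CTX sample (*Cd68*, *Cd14*, *Lyz2* and *Tyrobp*), against 15.0% of all genes tested. Of these, *Cd14* rose by a log2 fold change of 1.29 (SE 0.20, limma adjusted p = 0.0347). The other markers overlapped between the groups. Among them, *Adgre1* was at 0.225 to 0.236 FPKM in PBS and 0.460, 0.870 and 0.207 FPKM in CTX replicates 1, 2 and 3. *Csf1r* was at 0.528 to 0.692 FPKM in PBS and 0.915, 0.785 and 0.640 FPKM in CTX replicates 1, 2 and 3. The defining leukocyte marker *Ptprc* was at 0.0708 to 0.0983 FPKM in PBS and 0.0640 to 0.0923 FPKM in CTX samples, *Itgam* at no more than 0.217 FPKM and *Cd163* at no more than 0.0826 FPKM. None of the 9 was at 3 reads or fewer in all samples. The part of these cells in the *Hmox1* values was not tested.

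**Figure D3:**
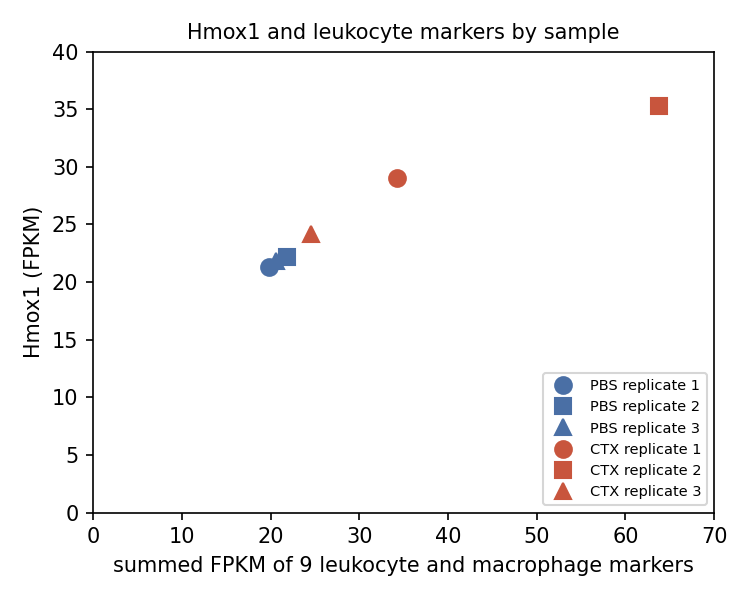
FPKM of *Hmox1* (y axis, from 0) against the summed FPKM of 9 leukocyte and macrophage markers (x axis, from 0), with 1 point per sample and colour for the group. The 3 PBS samples lie together near 20 to 22 on both axes, and the CTX samples lie above and to the right of them, with CTX replicate 2 farthest out at 63.8 and 35.2. Most of the marker sum in each sample is *Lyz2*.

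Levels between members spanned a wide range. In PBS samples *Txnrd1* was the most abundant (24.0 ± 0.414 FPKM), followed by *Hmox1*, *Gclc* (20.6 ± 0.245 FPKM), *Nfe2l2*, *Gsr* (17.6 ± 1.06 FPKM), *Keap1* (16.8 ± 0.0943 FPKM), *Gclm* (12.2 ± 0.598 FPKM), *Srxn1* (3.34 ± 0.331 FPKM), *Nqo1* (1.27 ± 0.0414 FPKM) and *Slc7a11* (SD, n = 3). In this order *Gsr* and *Keap1* had overlapping ranges over the PBS samples, and the other neighbours did not. In CTX samples the ranges of *Hmox1*, *Txnrd1*, *Gclc*, *Nfe2l2* and *Gsr* ran into one another.

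The samples varied more after CTX for 9 of 10 members, as they did for 69.1% of all genes tested. The coefficient of variation of the members ran from 0.561% (*Keap1*) to 18.7% (*Slc7a11*) in PBS and from 4.52% (*Gclm*) to 47.6% (*Srxn1*) in CTX samples. No CTX sample was the highest for all members. CTX replicate 2 was the highest of the 3 for 5 members (*Gclc*, *Gclm*, *Gsr*, *Txnrd1* and *Hmox1*) and the lowest for 2 (*Srxn1* and *Nqo1*), while CTX replicate 3 was the lowest for 5. Without CTX replicate 2, 6 of the 9 tested members lay above PBS in both remaining CTX samples, against 19.3% of all genes tested.

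**Figure D4:**
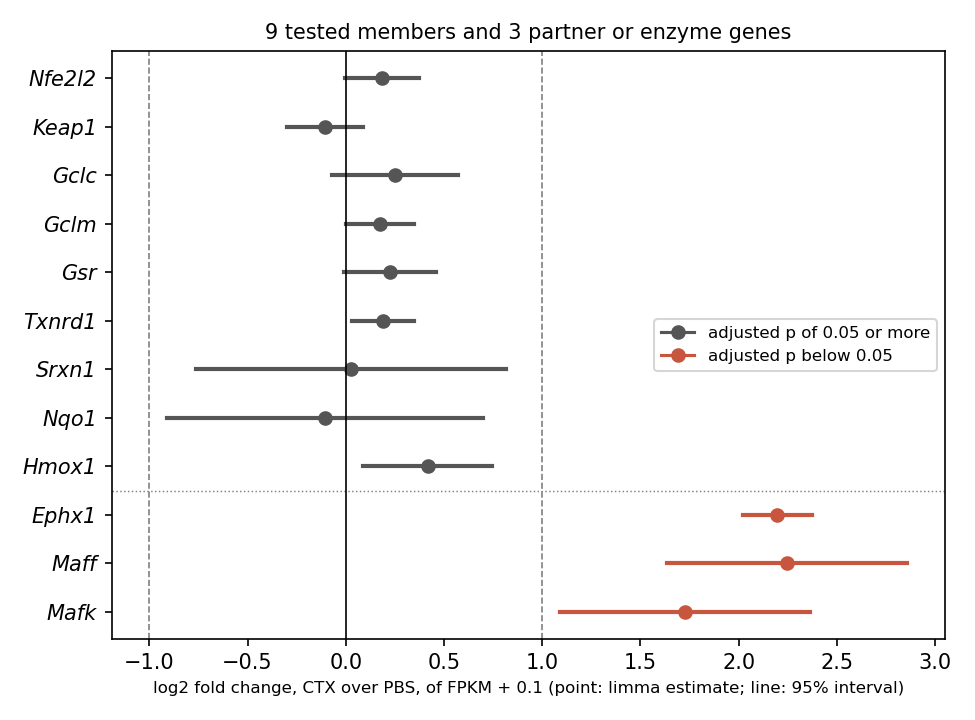
Fitted log2 fold change of CTX over PBS (x axis, on FPKM + 0.1) for the 9 tested members and, under the dotted line, 3 other genes of the pathway (y axis). Points are limma estimates, lines are 95% intervals and dashed lines mark 2-fold. All 9 member intervals lie between the dashed lines, while *Ephx1*, *Maff* and *Mafk* lie beyond 2-fold.

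Around the members, 66 other genes of the pathway were examined in 7 groups, and 60 of them were expressed highly enough to be tested. Of the 60, 3 rose (*Ephx1*, *Maff* and *Mafk*) and 0 fell, against 1.40% and 0.360% of all genes tested. The median log2 fold change of the 60 was 0.0334, with 36 fitted higher and 24 lower. In 14 every CTX sample was above PBS and in 3 every CTX sample was below it, where the shares among all genes tested were 15.0% and 14.1%.

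The partners and repressors of NRF2 held 2 of the 3 rises, both among the small MAF genes. Small MAF proteins have no activation domain of their own and bind AREs as partners of NRF2 or of BACH1. *Maff* was present at 5.10, 5.36 and 4.19 FPKM in PBS and at 15.6, 29.1 and 28.3 FPKM in CTX replicates 1, 2 and 3. *Mafk* was present at 8.52, 7.93 and 7.66 FPKM in PBS and at 17.4, 36.8 and 30.1 FPKM in CTX replicates 1, 2 and 3. Both genes were far higher in every CTX sample, with CTX replicate 1 the lowest of the 3. The other small MAF gene, *Mafg*, was at 18.6, 18.7 and 16.5 FPKM in PBS and at 16.2, 16.0 and 19.1 FPKM in CTX replicates 1, 2 and 3. For *Mafg* the groups overlapped (log2 fold change -0.070, SE 0.095, limma adjusted p = 0.694).

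*Maff* rose by a log2 fold change of 2.25 (SE 0.25, limma adjusted p = 0.0124), or 4.75-fold with an interval of 3.11 to 7.25. *Mafk* rose by 1.73 on the log2 scale (SE 0.26, limma adjusted p = 0.0339), or 3.31-fold with an interval of 2.13 to 5.15. Neither call held when PBS replicate 1, 2 or 3 or CTX replicate 3 was left out, with adjusted p of 0.0641 to 0.0884 for *Maff* and 0.129 to 0.17 for *Mafk*, where the log2 fold changes were 2.11 to 2.32 and 1.64 to 1.77. In those fits 0.470% to 0.589% of all genes tested rose, against 1.40% in the reported fit. The other 9 tested genes of this group did not pass. *Bach1* had a log2 fold change of 0.23 (SE 0.12, limma adjusted p = 0.328).

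*Sqstm1*, the autophagy adaptor p62 that sequesters KEAP1 and is itself an NRF2 target, was present at 127, 120.2 and 129.7 FPKM in PBS and at 161, 189 and 154 FPKM in CTX replicates 1, 2 and 3. It was higher in every CTX sample, with a log2 fold change of 0.41 (SE 0.096, limma adjusted p = 0.104).

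In detoxification and export, 1 of 11 tested genes rose and 0 fell, against 1.40% and 0.360% of all genes tested. *Ephx1*, the microsomal epoxide hydrolase, was present at 9.21, 8.70 and 9.21 FPKM in PBS and at 39.4, 44.9 and 41.1 FPKM in CTX replicates 1, 2 and 3. The CTX samples were alike, and CTX replicate 2 did not stand apart. The mean went from 9.04 ± 0.295 to 41.8 ± 2.82 FPKM (SD, n = 3). The log2 fold change of 2.20 (SE 0.073, limma adjusted p = 4.51e-04) corresponds to 4.58-fold with an interval of 4.06 to 5.18. *Ephx1* passed under all 17 alternative settings tried, with adjusted p of at most 0.0184. For the setting with unadjusted p this was given by the reported fit.

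None of the other 5 groups held a gene that rose or fell, where 1.76% of all genes tested did so. Of 8 tested genes of glutathione synthesis and use, 5 were fitted higher and 3 lower. *Gpx3*, the secreted glutathione peroxidase, was present at 55.2, 52.6 and 58.4 FPKM in PBS and at 106, 93.6 and 68.9 FPKM in CTX replicates 1, 2 and 3. All CTX samples were above PBS (log2 fold change 0.67, SE 0.16, limma adjusted p = 0.114). Of 11 thioredoxin and peroxiredoxin genes, 6 were fitted higher and 5 lower.

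*Txnip*, which binds and inhibits thioredoxin, was present at 76.0, 69.9 and 75.8 FPKM in PBS and at 91.7, 264 and 145 FPKM in CTX replicates 1, 2 and 3. Its CTX samples were all higher but far apart (log2 fold change 1.04, SE 0.36, limma adjusted p = 0.197). All 4 genes that remove superoxide and peroxide were fitted higher, and the largest of these differences was that of *Cat*, catalase (log2 fold change 0.19, SE 0.086, limma adjusted p = 0.281).

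NADPH is the reductant used by GSR, TXNRD1 and NQO1. Of 7 genes grouped here under NADPH supply, not all of which make NADPH themselves, 6 were fitted lower and 1 higher, with a median of -0.236. Of all genes tested, 48.6% were fitted above 0. None passed the test, and the groups overlapped for all 7, where 29.2% of all genes tested did not overlap. Without CTX replicate 2, a fit added after the values were seen, 4 were fitted lower and 3 higher, with a median of -0.0278. In CTX replicate 1, 5 of the 7 were above every PBS sample, and the share of all genes tested that were so was not computed. *Idh1*, cytosolic isocitrate dehydrogenase, was present at 355, 321 and 333 FPKM in PBS and at 412, 69.4 and 293 FPKM in CTX replicates 1, 2 and 3. CTX replicate 1 was above the PBS samples and CTX replicates 2 and 3 below them, replicate 2 by far the most (log2 fold change -0.73, SE 0.63, limma adjusted p = 0.536).

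Of 8 genes of haem and iron handling, 7 were fitted higher and 1 lower, where 48.6% of all genes tested were fitted above 0. In 4 every CTX sample was above PBS, against 15.0% of all genes tested. The gene fitted lower was *Tfrc*, the transferrin receptor that takes up iron. It was present at 16.2, 14.8 and 15.3 FPKM in PBS and at 12.1, 8.89 and 9.91 FPKM in CTX replicates 1, 2 and 3. All CTX samples were below PBS (log2 fold change -0.59, SE 0.12, limma adjusted p = 0.0812).

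**Figure D5:**
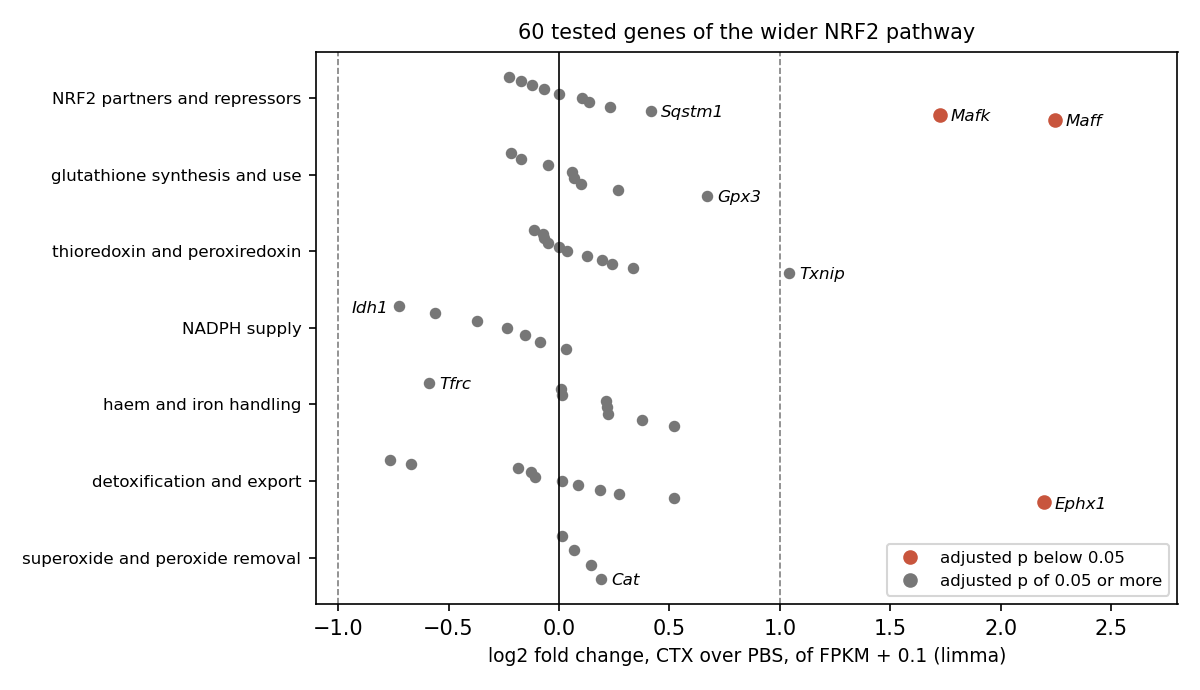
Fitted log2 fold change of CTX over PBS (x axis, on FPKM + 0.1) for the 60 tested genes of the wider pathway, in 7 groups (y axis). Each point is a gene, red where its limma adjusted p was below 0.05, and dashed lines mark 2-fold. *Maff*, *Mafk* and *Ephx1* stand to the right at 1.73 to 2.25, and most other genes lie near 0.

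The genes whose values across the 6 samples were most like those of *Nfe2l2* were sought among 8049 other genes with a mean of at least 5 FPKM. They were *Rab9* (Pearson r = 0.971 on log2 values), *1700017B05Rik* (0.965), *Gpx3* (0.964), *Ythdf1* (0.964) and *Eogt* (0.963). These values describe 6 samples that fall into 2 treatment groups and have no test. Each of the 5 was highest in CTX replicate 1 and next highest in CTX replicate 2, as *Nfe2l2* was. This shared order largely follows from choosing the genes by their correlation with *Nfe2l2*.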

How the data were processed

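GCs of 6 samples were assigned to PBS or CTX from their labels. The authors deposited FPKM values per gene with GRCm38 coordinates; the table's group means, log2 fold change, p-value and adjusted p-value columns are the authors' own comparison and were not used. The submitters' processing notes name CASAVA 1.8, fastp, HISAT2 2.0.5, featureCounts 1.5.0-p3, DESeq2 1.20.0 and mm10. Strandedness is not given in the sources used here.

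The 10 members and all gene lists were chosen with earlier results of these data known. The 7 ratios, the motif search, the counts of coefficients of variation and of intervals within 2-fold, and the plot of *Hmox1* against markers were chosen after the values were seen. Coordinates and lengths of the 10 members equalled GENCODE M21.

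Log2(FPKM + 0.1) values were compared with limma 3.58.1 (lmFit, eBayes with trend) in R 4.3.3 for 14463 genes with a mean of at least 0.5 FPKM, with Benjamini-Hochberg adjustment over these genes. The fit was tested on simulated data with 2 models of the spread between samples, the second written after the first was seen. Under the first, the share of unchanged genes among the calls exceeded the nominal level, so calls near the threshold may be liberal. The fit also missed most genes that were raised or lowered by 2-fold or less under the first model, and found most of them under the second. A gene that did not pass is therefore not shown to be unchanged. FPKM times gene length gave whole reads (within 0.01) for 99.93% to 99.97% of values above 0. Python 3.11.15, matplotlib 3.10.9, NumPy 2.4.6 and pandas 2.3.3 served for tables and figures. Named genes were the members, *Slc3a2*, *Bach1*, *Sqstm1*, the pathway genes that passed the test and, in groups with none, the gene with the largest change. *Nfe2l1*, *Mafg*, *Hmox2*, *Txnrd2* and the genes of the last observations fall outside this rule and were named after their values were seen. Each sample held different mice, and replicate numbers were not used as a block.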

Additional observations from a re-analysis of the deposited data

How the results depend on the processing

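Alternatives were pseudocounts of 1 and 0.01, no filter or a mean of at least 5 FPKM, scaling to the 75th percentile, quantile normalization, a replicate block, arrayWeights, eBayes without trend, voom on rebuilt reads, unadjusted p and each sample left out. The count of members passing was 0 in 15 of 17. It was 3 with arrayWeights (*Gclm*, *Keap1* and *Txnrd1*), where 39.8% of all genes passed and limma stopped before convergence, and 3 with unadjusted p. No member passed with a 2-fold change in any of the 17. Pathway genes that rose numbered 3 in the reported fit, 18 with arrayWeights and 10 with unadjusted p. Of all genes tested, 19.4% rose with arrayWeights and 10.5% were higher at unadjusted p, against 1.40% in the reported fit. With the replicate block 1 pathway gene rose (*Ephx1*), where 0.346% of all genes tested did so. With a sample left out 1 to 3 rose, where 0.470% to 2.49% of all genes tested did so. The count was 1 without PBS replicate 1, 2 or 3, and the gene was *Ephx1*. In those fits 0.519%, 0.493% and 0.470% of all genes tested rose. Pathway genes that fell numbered 0 in the reported fit, 8 with arrayWeights, 1 with voom, 1 with unadjusted p and 0 to 1 with a sample left out. Of all genes tested, 0.360% fell in the reported fit and 9.10% were lower at unadjusted p. With arrayWeights 39.8% of all genes passed in either direction, where 19.4% rose. With voom these shares were 1.84% and 1.29%, and without CTX replicate 1 they were 3.05% and 1.92%. *Tfrc* was the gene under voom (adjusted p = 0.0461) and without CTX replicate 1 (adjusted p = 0.0218), and *Gpx3* passed without CTX replicate 3 (adjusted p = 0.0393). The replicate block gave adjusted p of 0.0709 for *Maff* and 0.133 for *Mafk*. *Mafk* also missed the threshold without trend (0.0622) and with no filter (0.0576). *Nqo1* reversed with arrayWeights (0.297) and without CTX replicate 2 (0.274), with a range of -0.305 to 0.274 over samples left out. *Srxn1* reversed without CTX replicate 1 (-0.319) and PBS replicate 1 (-0.0378), with a range of -0.319 to 0.36. The other 7 tested members kept their sign in all 17, with arrayWeights giving the lowest values for *Nfe2l2* (0.0629) and *Hmox1* (0.155). Settings that alter only the filter, the trend, the block or the adjustment left the estimates as they were, so the sign could not turn there. *Hmox1* ranged up to 0.551 with adjusted p of 0.106 to 0.431. *Slc7a11* kept its sign in the 9 alternatives run for it (-0.725 to -0.161). Scaling, block, arrayWeights, trend and voom were not run for it. Apart from these, the cause of the differences was not tested. For samples with the same number, deviations from the group means had correlations of 0.0556, 0.0242 and 0.00581. Samples with different numbers gave -0.0756 to 0.0593. These values cannot show whether samples with the same number were handled together. With 3 samples per group, the intervals of *Nqo1* (0.533 to 1.62-fold) and *Srxn1* (0.589 to 1.76-fold) are wide.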

Other observations

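In 15 of the 60 tested pathway genes (25%, against 8.55% of all genes tested), CTX replicate 2 was the lowest sample, CTX replicate 3 was also under every PBS sample, and CTX replicate 1 was not. Of these, *Me1*, *Akr1b8* and *Osgin1* are given here. *Me1*, malic enzyme, was at 168 to 179 FPKM in PBS and at 215, 55.8 and 135 FPKM in CTX replicates 1, 2 and 3. *Akr1b8*, an aldo-keto reductase, was at 12.8 to 14.8 FPKM in PBS and at 15.7, 2.78 and 11.3 FPKM in CTX replicates 1, 2 and 3. *Osgin1* was at 5.83 to 6.59 FPKM in PBS and at 6.44, 1.54 and 5.47 FPKM in CTX replicates 1, 2 and 3. In CTX replicate 1 these 3 genes were within or above the PBS range, which follows from the pattern by which they were chosen. The pattern and these genes were chosen after the values were seen, and none of the 3 passed the test (limma adjusted p = 0.508, 0.496 and 0.477).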
